A study of Mus musculus with 24 samples.

Results

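The genes described here are 10 genes of triglyceride storage and breakdown, namely the lipases Lipe, Pnpla2 and Mgll, the lipase regulators Abhd5, G0s2 and Hilpda, and the perilipins Plin2, Plin3, Plin4 and Plin5. They were listed by name for their role, with earlier results of these data known. They are 10 of the 56941 genes in the count table, of which 30116 had a count in at least 1 kidney. All 10 passed the filter on low counts that left 12780 genes for testing. The table was made by MACE, which sequences fragments next to the poly(A) tail with a molecular tag on each.

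Mice with myocardial infarction (MI) after permanent ligation of a coronary artery, the left anterior descending artery, were compared with sham-operated mice, which had the same operation without the ligation. All mice were male wild-type C57BL/6J mice that were 8–11 weeks old at surgery. Kidneys were taken 5d or 28d post-MI, and sham kidneys 5d after surgery. The labels list 8 sham, 9 5d post-MI and 7 28d post-MI kidneys, and 8, 8 and 6 of them could be assigned to a column of counts. The same sham kidneys served both times, and no sham kidneys of 28d were used here. Infarction and the longer time since surgery therefore cannot be told apart in the comparison of 28d post-MI with sham. Each kidney is a whole-tissue sample, in which fewer cells of a type and less RNA per cell cannot be told apart.

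Fat is stored as triglyceride in lipid droplets. Adipose triglyceride lipase, the product of Pnpla2, takes off the first fatty acid, hormone-sensitive lipase (Lipe) the next, and monoacylglycerol lipase (Mgll) the last. Abhd5 is the co-activator of the first of these enzymes, and G0s2 and Hilpda are its inhibitors. Perilipins coat the droplet and control access to it. In the kidney, tubule cells burn fatty acids for energy and can hold droplets, whereas adipocytes sit in the fat around the organ and at its hilum. Adipoq, the gene of the hormone adiponectin, is made by adipocytes and was used as the measure of fat in each sample.

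The 10 genes lie on 6 autosomes (positions from GENCODE M21, build GRCm38). Lipe (chr7:25379527-25398710, minus strand) and Pnpla2 (chr7:141455198-141460743, plus strand) share a chromosome. Mgll (chr6:88724412-88828360) and Hilpda (chr6:29272488-29275446) lie on the plus strand of another. Plin4 (chr17:56100591-56109803) and Plin5 (chr17:56111601-56117596) are close neighbours on the minus strand, and Plin3 (chr17:56277476-56292873, minus strand) is on the same chromosome. Plin2 (chr4:86648386-86670060, minus strand), Abhd5 (chr9:122351608-122381524, plus strand) and G0s2 (chr1:193272161-193273217, minus strand) stand alone. The strand setting of the counting is not given in the sources used here, so reads of overlapping genes on opposite strands cannot be told apart. Over all 22 kidneys, Hdgfl2, whose annotated 3′ end overlaps that of Plin4 by a few bases, had 1215 counts against 739 of Plin4. Lamb3, across G0s2, had 354 counts against 5265 of G0s2. The antisense gene 4732471J01Rik, across Lipe, had 30 counts against 2354 of Lipe.

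Promoter sequence is shown for 6 of the genes, because 3 of them (Lipe, Pnpla2 and Plin4) moved together with Adipoq across kidneys and 3 (Plin2, Abhd5 and Hilpda) had a lower or no correlation with it. Each is the 250 bases before a RefSeq start in build GRCm38.p6, written 5′ to 3′ on the strand of the gene, with at most 30 bases in an annotated exon. Capitals mark 2 kinds of letters on either strand, AGGTCA, the letters that nuclear receptors such as the PPARs bind in pairs, and ACGTG or GCGTG, the core of the hypoxia response element.
Lipe: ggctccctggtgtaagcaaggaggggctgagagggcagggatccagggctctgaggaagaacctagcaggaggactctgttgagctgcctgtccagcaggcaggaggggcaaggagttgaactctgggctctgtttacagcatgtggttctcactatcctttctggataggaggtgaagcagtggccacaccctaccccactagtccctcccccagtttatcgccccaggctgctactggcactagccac
Pnpla2: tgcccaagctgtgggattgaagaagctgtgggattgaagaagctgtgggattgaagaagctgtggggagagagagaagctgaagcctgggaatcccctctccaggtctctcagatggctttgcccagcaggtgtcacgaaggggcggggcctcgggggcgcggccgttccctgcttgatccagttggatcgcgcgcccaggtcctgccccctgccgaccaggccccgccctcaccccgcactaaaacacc
Plin4: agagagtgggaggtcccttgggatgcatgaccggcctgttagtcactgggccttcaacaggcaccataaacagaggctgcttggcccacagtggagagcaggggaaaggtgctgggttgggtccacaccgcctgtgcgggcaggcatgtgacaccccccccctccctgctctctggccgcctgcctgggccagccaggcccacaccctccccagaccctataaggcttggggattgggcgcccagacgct
Plin2: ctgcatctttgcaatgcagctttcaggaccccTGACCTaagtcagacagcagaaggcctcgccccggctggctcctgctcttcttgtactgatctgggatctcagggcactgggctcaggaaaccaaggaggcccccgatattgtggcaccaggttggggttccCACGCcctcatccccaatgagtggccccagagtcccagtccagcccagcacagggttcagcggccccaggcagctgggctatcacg
Abhd5: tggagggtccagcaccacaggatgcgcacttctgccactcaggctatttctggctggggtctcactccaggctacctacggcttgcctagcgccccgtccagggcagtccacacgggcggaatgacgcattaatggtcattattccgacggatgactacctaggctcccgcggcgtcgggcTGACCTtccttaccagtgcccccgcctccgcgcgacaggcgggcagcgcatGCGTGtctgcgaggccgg
Hilpda: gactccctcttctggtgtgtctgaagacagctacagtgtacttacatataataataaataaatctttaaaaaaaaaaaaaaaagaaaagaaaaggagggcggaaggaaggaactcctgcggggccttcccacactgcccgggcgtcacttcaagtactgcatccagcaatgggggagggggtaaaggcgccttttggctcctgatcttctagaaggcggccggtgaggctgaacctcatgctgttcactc
The windows lie at chr7:25390113-25390362 for Lipe, chr7:141454938-141455187 for Pnpla2, chr17:56109783-56110032 for Plin4, chr4:86670060-86670309 for Plin2, chr9:122351366-122351615 for Abhd5 and chr6:29272238-29272487 for Hilpda. All 10 genes had an entry, with 14 windows in all. AGGTCA was present in 3 of the 14 windows, those of Abhd5, Plin2 and Plin5, and in 14.02% of all 32851 windows of the same length. ACGTG was present in 4 member windows, of Hilpda, Lipe and Mgll, against 16.57% of all windows, and GCGTG in 9 against 28.16%. The 4 windows with ACGTG are not among those shown, as 121 to 250 of their bases lie in annotated exons. ACGTG lies within CACGTG, the E-box, which was present in 2 member windows, of Lipe and Mgll, and in 6.021% of all windows. A direct repeat of AGGTCA with 1 base between, the paired element of the PPARs, was in 0 of the 14 windows and in 0.03348% of all windows. None of the windows of Pnpla2 and Plin4 held any of these letters. Of 2 general promoter elements, TATAAA was in 0 member windows against 12.37% of all windows, and CCAAT in 4, of Plin2, Plin3, Plin4 and Plin5, against 33.85%. A match describes the letters in the window only.

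Total counts per kidney were between 2280618 and 3786275. All values below are CPM, the counts relative to the library total after scaling with TMM factors. The labelled tissue was kidney, and the summed proximal tubule markers (6 genes, all detected) were at 47706–58080 CPM in sham, 33054–64279 at 5d and 59661–68016 CPM at 28d post-MI. Every kidney at 28d was thus above every sham kidney in these markers, whose part in the differences below was not tested. The summed white adipocyte markers (10 genes, none at 0 in every kidney) were at 1446–3471 CPM in sham, 1029–3450 at 5d and 1594–2525 CPM at 28d post-MI. The summed brown adipocyte markers (8 genes, none at 0 in every kidney) were at 77.6–475, 58.5–356 and 71.5–159 CPM in the same order. The summed adrenal cortex markers (8 genes, Cyp11b2 at 0 in every kidney) reached 1040 CPM in sham with a median of 7.89 CPM, 99.2 CPM at 5d and 10.4 CPM at 28d post-MI. A pair of sham kidneys, replicates 2 and 6, held most of the adrenal signal. Red blood cell markers (4 genes) were at 2185–4093 CPM in sham, 4931–18946 CPM at 5d and 1782–5084 CPM at 28d post-MI.

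Adipoq was at 17.9 CPM in the lowest sham kidney, 48.4 CPM in the median and 94.7 CPM in the highest. At 5d post-MI it was at 6.02, 40.7 and 62.1 CPM, and at 28d post-MI at 11.4, 21.1 and 54.1 CPM. It thus differed 15.7-fold between the lowest and the highest of the 22 kidneys. Its mean log2 level differed from sham by −0.94 at 28d post-MI (exact two-sided permutation test, p = 0.0340, adjusted p = 0.204 over 12 tests of marker levels). At 5d it differed by −0.67 (exact permutation p = 0.189, adjusted p = 0.324). Brown adipocyte markers differed by −1.25 between 28d post-MI and sham (exact permutation p = 0.00866, adjusted p = 0.104).

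**Figure D1:**
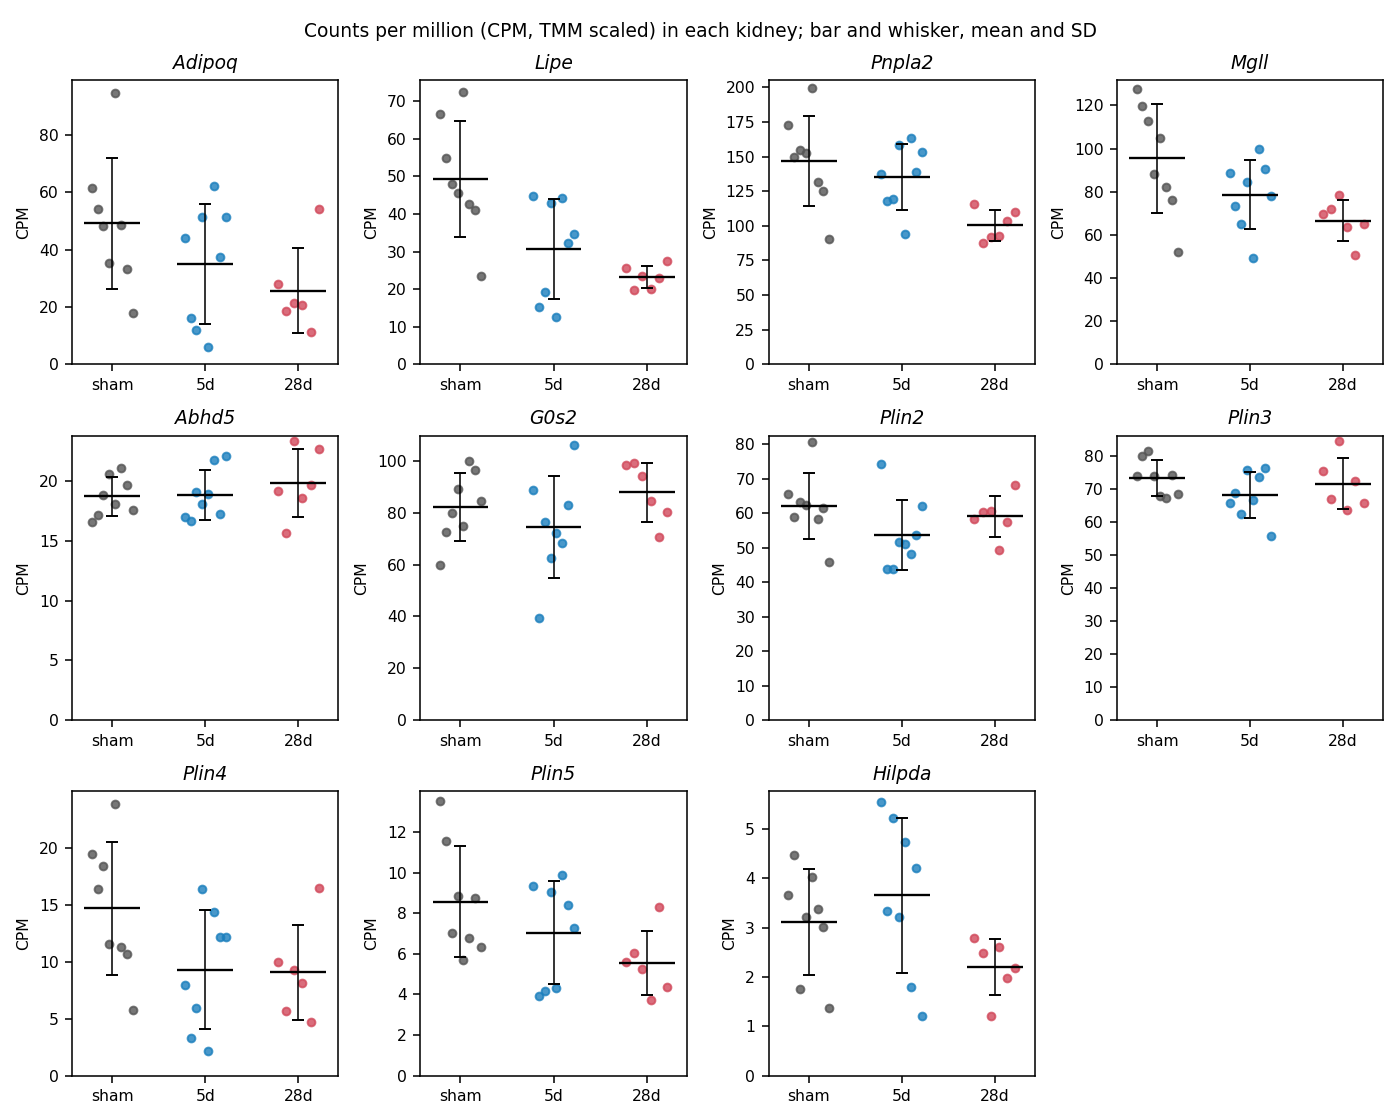
CPM of Adipoq and the 10 genes in each kidney, on linear axes that start at 0, in sham (n = 8), 5d post-MI (n = 8) and 28d post-MI (n = 6). Points are kidneys, bars are means and whiskers SD, and the 6 kidneys at 28d post-MI span only 19.9 to 27.4 CPM for Lipe against 23.4 to 72.5 CPM in sham.

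The 3 lipases had lower means at 28d post-MI than in sham kidneys, and edgeR called none of the 10 genes in any comparison. Lipe had a mean of 49.3 CPM ± 15.5 (SD, n = 8) in sham, 30.7 ± 13.4 (n = 8) at 5d and 23.2 ± 2.97 (n = 6) at 28d post-MI. Pnpla2 was at 147 ± 32.6, 135 ± 23.6 and 100 ± 11.2 CPM, and Mgll at 95.5 ± 25.4, 78.6 ± 15.9 and 66.6 ± 9.42 CPM. With edgeR, 0 of the 10 genes had an adjusted p under 0.05 at 5d post-MI against sham, where 0.0704% of all genes did. The count was 0 at 28d post-MI against sham (all genes 0.0235%) and 0 at 28d against 5d post-MI (all genes 0.415%). At an unadjusted p under 0.05, 2 genes were found at 5d against sham, 4 at 28d against sham and 2 at 28d against 5d, where all genes gave 7.89%, 8.69% and 9.05%. DESeq2 on the same samples called 0, 1 and 0 of the 10 genes, against 0.232%, 0.198% and 0.565% of all genes, and limma voom called 0, 0 and 0, against 0.172%, 0.0861% and 0.493%. DESeq2 on the kidneys of each comparison alone, a fit added after the data had been seen, called 0, 2 and 1, against 0.173%, 0.427% and 0.53% of all genes.

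In sham kidneys Lipe was lowest at 23.4, had a median of 46.7 and was highest at 72.5 CPM. In the kidneys taken 5d post-MI these values were 12.5, 33.5 and 44.7 CPM, and at 28d post-MI 19.9, 23.1 and 27.4 CPM. Of the kidneys at 28d post-MI, 3 of 6 were below every sham kidney, and the other 3 lay above only the lowest one, sham replicate 8. At 5d, 3 of 8 kidneys were below every sham kidney, and 3 others also lay above sham replicate 7. The log2 fold change of Lipe was −0.66 (SE 0.25, edgeR adjusted p = 0.504) at 5d and −1.08 (SE 0.29, adjusted p = 0.246) at 28d post-MI. In DESeq2 the adjusted p of Lipe at 28d was 0.0599, and in DESeq2 on the sham and 28d kidneys alone it was 2.93e-05.

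Pnpla2 was at 90.3, 151 and 199 CPM in the lowest, median and highest sham kidney. It was at 94.2, 138 and 163 CPM at 5d and at 87.8, 98.1 and 115 CPM at 28d post-MI. The 28d kidneys lay at the low end of the sham range, with 1 of 6 below every sham kidney, and 3 of 6 were below every kidney at 5d. Its log2 fold change at 28d against sham was −0.55 (SE 0.15, edgeR adjusted p = 0.258), and DESeq2 gave an adjusted p of 0.0313. Without sham replicate 8, edgeR called Pnpla2 at 28d as well (log2 fold change −0.63, adjusted p = 0.0386). At 5d the difference from sham was −0.11 (SE 0.13), and 28d differed from 5d by −0.44 (SE 0.15, adjusted p = 0.315).

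Mgll ranged over 52.0, 96.7 and 128 CPM in sham as lowest, median and highest value. At 5d it was at 49.4, 81.1 and 99.8 CPM and at 28d at 50.9, 67.5 and 78.7 CPM. All 3 ranges overlapped, and 1 kidney at each time was below every sham kidney. Its log2 fold change was −0.27 (SE 0.16, edgeR adjusted p = 0.730) at 5d and −0.51 (SE 0.18, adjusted p = 0.402) at 28d.

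For the regulators Abhd5 and G0s2, the means at 28d post-MI were not below sham. Abhd5, the co-activator, was at 18.7 ± 1.63 CPM in sham, 18.9 ± 2.11 at 5d and 19.9 ± 2.86 at 28d post-MI. Its lowest, median and highest values were 16.6, 18.5 and 21.1 CPM in sham, 16.6, 18.5 and 22.1 at 5d, and 15.6, 19.4 and 23.4 at 28d, so that the 3 groups covered nearly the same range. Its log2 fold change was 0.09 (SE 0.11) at 28d against sham. G0s2, an inhibitor, was at 82.2 ± 13.2, 74.7 ± 19.7 and 88.0 ± 11.4 CPM, with 59.9, 82.2 and 100.1 CPM as lowest, median and highest value in sham. At 28d post-MI these were 70.6, 89.5 and 99.2 CPM, all within the sham range, and the log2 fold change was 0.10 (SE 0.16). At 5d G0s2 ran from 39.3 to 106 CPM around a median of 74.4, the widest range of the 3 groups.

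Hilpda, an inhibitor of the same lipase and a hypoxia-responsive gene, was detected near the limit of depth, with 3 to 16 counts per kidney. It was at 1.38, 3.30 and 4.47 CPM as lowest, median and highest value in sham, 1.21, 3.76 and 5.54 at 5d, and 1.21, 2.33 and 2.80 at 28d post-MI. Hilpda thus had a log2 fold change of 0.19 (SE 0.27) at 5d and −0.48 (SE 0.32, edgeR adjusted p = 0.728) at 28d, and 28d differed from 5d by −0.67 (SE 0.32, adjusted p = 0.534).

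Of the perilipins, Plin4 and Plin5 had log2 fold changes well below 0 at 28d post-MI, and Plin2 and Plin3 were near 0. Plin4, the perilipin typical of adipocytes and muscle, was at 5.78, 13.96 and 23.8 CPM as lowest, median and highest value in sham, 2.15, 10.05 and 16.3 at 5d, and 4.73, 8.72 and 16.5 at 28d. The groups overlapped over most of their range, and its log2 fold changes were −0.60 (SE 0.34) and −0.64 (SE 0.38, edgeR adjusted p = 0.684) at 5d and 28d against sham. Plin5, the perilipin of oxidative tissues that links droplets to mitochondria, was at 5.71, 7.89 and 13.5 CPM in sham, 3.93, 7.84 and 9.86 at 5d, and 3.71, 5.42 and 8.28 at 28d. Here 4 of 6 kidneys at 28d were below every sham kidney, and the log2 fold change was −0.65 (SE 0.24, adjusted p = 0.391).

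Plin2, the common coat protein of droplets outside adipose tissue, was at 62.1 ± 9.56 CPM in sham, 53.6 ± 10.2 at 5d and 59.1 ± 6.05 at 28d. It ran from 46.0 to 80.6 CPM in sham, 43.8 to 74.1 at 5d and 49.4 to 68.1 at 28d, with log2 fold changes of −0.21 (SE 0.10, edgeR adjusted p = 0.624) and −0.07 (SE 0.11). Plin3, which binds nascent droplets and is found in most cells, was at 73.5 ± 5.43, 68.2 ± 7.09 and 71.6 ± 7.76 CPM. Its values ran from 67.4 to 81.6 CPM in sham, 55.8 to 76.4 at 5d and 63.8 to 84.8 at 28d, and its log2 fold change at 28d was −0.04 (SE 0.07). Plin3 and Abhd5 had the narrowest spread over all kidneys (CV 9.58% and 11.2%), and Plin4 and Lipe the widest (50.6% and 46.1%).

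Over the 10 genes, 8 had a log2 fold change below 0 at 5d and 8 at 28d against sham, with medians of −0.18 and −0.50 against 0.00034 and −0.00099 over all tested genes. Both comparisons share the sham kidneys. None of the 10 had groups without overlap, where 0.0548% of all genes did at 5d against sham, 0.258% at 28d against sham and 0.344% at 28d against 5d.

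The next question was which of these genes moved with fat from kidney to kidney within a group. Pearson's r was taken on log2 CPM after subtraction of the group means, with p from 100000 permutations within groups and adjustment over 50 relations of the 10 genes with 5 references. A gene was said to follow Adipoq at r of at least 0.7, provided that r was at least 0.5 without the 2 kidneys farthest from the median Adipoq. By this rule 4 genes followed, namely Plin4, Lipe, Pnpla2 and Mgll, 5 did not, and Plin2 lay between. Over all genes, 0.587% had an r of at least 0.7. The kidneys share their dissection as well as their RNA, so r describes covariation only.

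Plin4 had an r of 0.93 (Spearman's rho 0.92, both with permutation p = 1e-05, the smallest that these permutations can give). It was 0.90 without the 2 farthest kidneys, and 0.95, 0.92 and 0.96 within sham, 5d and 28d. Lipe had an r of 0.90 (rho 0.91, both permutation p = 1e-05), and 0.91 without the 2 kidneys. Within groups it was 0.95 in sham and 0.95 at 5d but 0.67 at 28d. Pnpla2 had an r of 0.83 (rho 0.81, permutation p = 2e-05 and 1e-05), 0.85 without the 2 kidneys, and 0.93, 0.97 and 0.45 within the groups. Mgll had an r of 0.76 (rho 0.68, permutation p = 5e-05 and 0.00067), 0.65 without the 2 kidneys, and 0.83, 0.93 and 0.39 within the groups. Adjusted over the 50 relations, these r had p = 0.00025, 0.00025, 0.00025 and 0.0005 by permutation.

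Plin2 had an r of 0.59 (rho 0.57, permutation p = 0.00961 and 0.0111, adjusted p = 0.0343 and 0.0396), and 0.70 without the 2 kidneys. Plin5 had an r of 0.43 (permutation p = 0.0803). It was 0.90 within the 8 kidneys at 5d, 0.12 in sham and −0.65 at 28d. Abhd5 (r = 0.20), G0s2 (0.12), Plin3 (0.07) and Hilpda (−0.12) had permutation p between 0.397 and 0.786. For these last 4 genes no covariation with Adipoq was detectable with 22 kidneys.

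**Figure D2:**
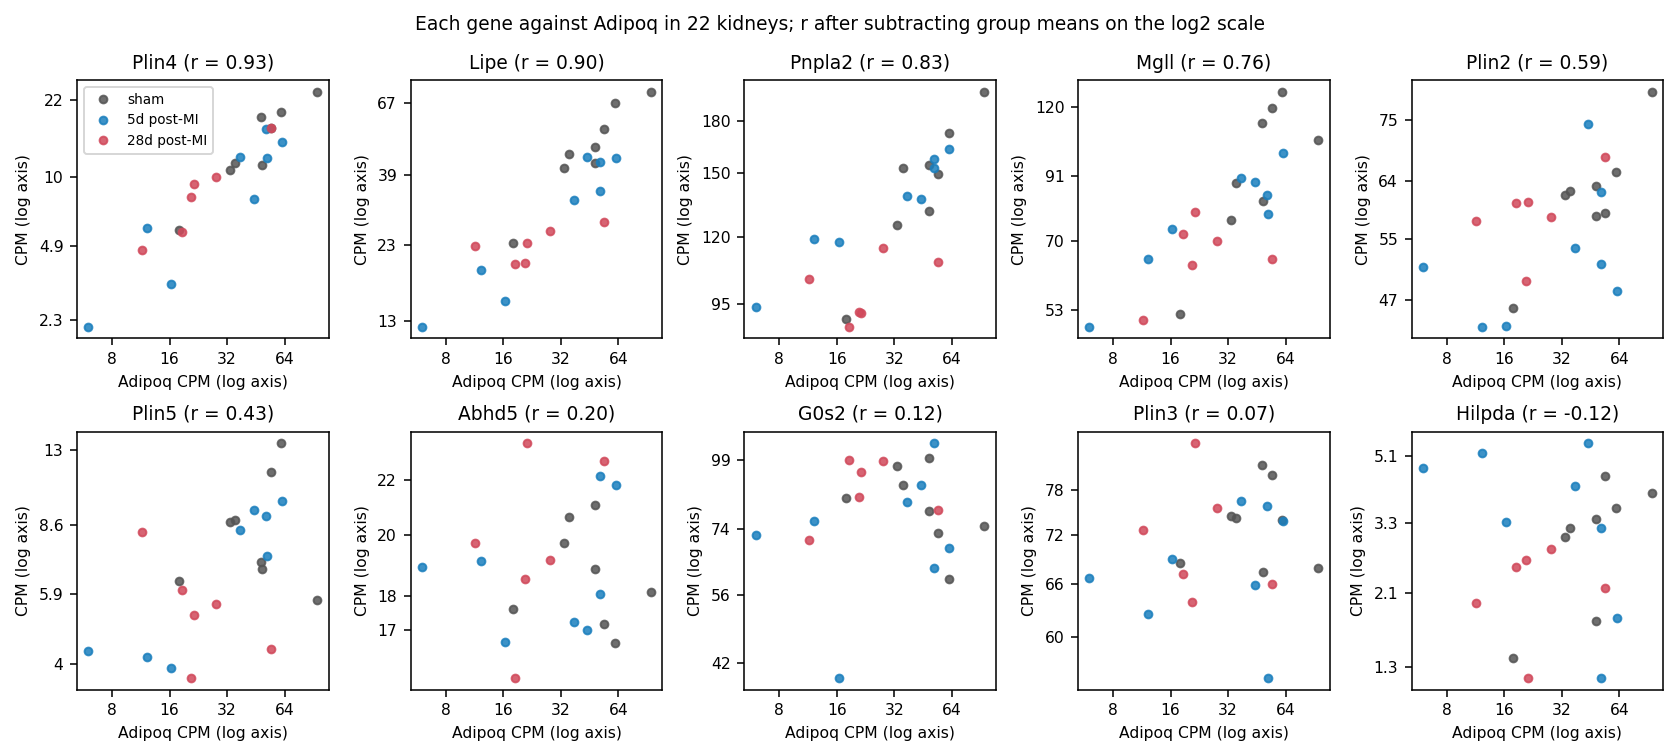
CPM of each gene against CPM of Adipoq in 22 kidneys, on log axes, ordered by r after subtraction of the group means. Points are kidneys coloured by group, and the kidneys form a narrow rising band for Plin4, Lipe and Pnpla2 and no band for G0s2, Plin3 and Hilpda (r = 0.12, 0.07 and −0.12).

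The same 4 genes were called when the slope on log2 Adipoq was fitted within groups over the whole table in edgeR. Of all genes, 0.595% had an adjusted p under 0.05 for this slope, and 0.579% with a positive slope. The slope was 0.83 log2 units per log2 unit of Adipoq for Plin4 (SE 0.08, adjusted p = 4.64e-09), 0.56 for Lipe (SE 0.06, adjusted p = 1.68e-08), 0.28 for Mgll (SE 0.06, adjusted p = 0.0119) and 0.25 for Pnpla2 (SE 0.04, adjusted p = 1.68e-05). Plin2 had a slope of 0.15 (SE 0.04, adjusted p = 0.130) and Plin5 of 0.24 (SE 0.11, adjusted p = 0.685). The slope of Mgll was no longer called without 5d replicate 6, the kidney with the least Adipoq (0.28, adjusted p = 0.097), and in that fit Plin2 was (0.20, adjusted p = 0.0350). When summed brown adipocyte and adrenal genes were in the model as well, Plin4 (0.84, adjusted p = 1.41e-05) and Lipe (0.36, adjusted p = 0.00329) were called, and Pnpla2 (0.20, adjusted p = 0.129) and Mgll (0.14, adjusted p = 0.950) were not, against 0.196% of all genes.

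On the linear scale, the part of each gene's mean level that moved with Adipoq was the slope of CPM on Adipoq CPM, with group terms, times the mean Adipoq level of 37.7 CPM. It was 79.7% of the level of Plin4 (95% interval 63.2 to 96.3), 58.3% of Lipe (43.7 to 73.0), 31.4% of Pnpla2 (23.0 to 39.8) and 28.5% of Mgll (12.8 to 44.3). What the line left at an Adipoq of 0 was 2.27 of 11.2 CPM for Plin4, 14.8 of 35.4 CPM for Lipe, 89.1 of 129.97 CPM for Pnpla2 and 58.2 of 81.5 CPM for Mgll. The share was 19.0% for Plin2 (8.34 to 29.7) and 19.0% for Plin5 (−10.1 to 48.2). For Abhd5 (4.20%), Hilpda (−4.01%), G0s2 (−0.63%) and Plin3 (−0.11%) the interval included 0. These shares depend on the marker chosen. With the other 9 white adipocyte markers in place of Adipoq the share was 98.4% for Lipe, 50.0% for Pnpla2, 52.1% for Mgll, 26.3% for Plin2 and 61.7% for Plin5. For Plin4 it was 129%, which is more than its whole level. The sum of these 9 markers and Adipoq ranked some kidneys differently. In 5d replicate 6, with the least Adipoq (6.02 CPM), the sum was at 1663 CPM. In 5d replicate 2, with 16.3 CPM of Adipoq, it was at 1012 CPM. With adrenal and brown genes as further terms the share was 37.6% for Lipe, 26.2% for Pnpla2, 12.1% for Mgll, 11.8% for Plin2, 82.2% for Plin4 and −16.4% for Plin5.

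Brown adipocyte genes moved with several members too. The summed markers had an r of 0.87 with Lipe, 0.79 with Mgll, 0.72 with Pnpla2, 0.70 with Plin5, 0.67 with Plin4 and 0.64 with Plin2, and permutation p adjusted over the 50 relations were between 0.00025 and 0.0186. Within sham and within 5d, r of these genes was between 0.55 and 0.96. Within 28d it was −0.26 for Lipe, −0.61 for Pnpla2 and −0.37 for Plin4, and 0.24 for Mgll, 0.36 for Plin5 and 0.13 for Plin2. Plin5, which did not follow Adipoq, had an adjusted permutation p of 0.00675 with the brown adipocyte sum, and its r was 0.61 without the 2 farthest kidneys. Adrenal cortex genes had an r between −0.14 and 0.26 with the 10 genes, none with an adjusted permutation p under 0.05. A mean was also taken over 20 PPARα targets, among them genes of fatty acid oxidation, and 16 of the 20 passed the filter on low counts. This mean had an r of 0.75 with Mgll (adjusted permutation p = 0.00108), 0.56 with Plin4 (0.00675), 0.48 with Plin3 (0.0396) and 0.46 with Lipe (0.0319). The mean of 20 hypoxia genes had an r of −0.45 with Hilpda (adjusted permutation p = 0.161) and between −0.01 and 0.52 with the other 9 genes, none past the threshold. By Spearman's rho, Plin2 was past it (0.60, adjusted permutation p = 0.0365).

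**Figure D3:**
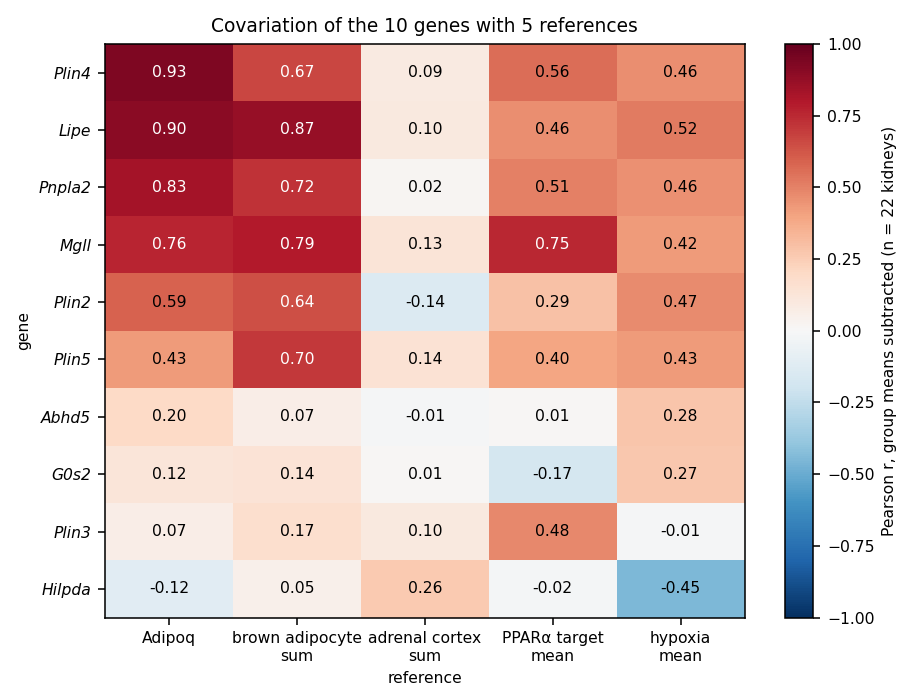
Pearson r of each gene with 5 references over 22 kidneys after subtraction of the group means. Rows are genes ordered by their r with Adipoq, columns are the references, and colour runs from −1 (blue) to 1 (red), with r above 0.6 in the Adipoq and brown adipocyte columns for Plin4, Lipe, Pnpla2 and Mgll.

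With Adipoq in the model of the groups, Plin4 and Plin2 no longer had lower values at 28d post-MI than in sham, and those of Lipe, Pnpla2 and Mgll were smaller. The log2 fold change at 28d was 0.08 (SE 0.17) for Plin4 and 0.08 (SE 0.10) for Plin2. For Lipe it was −0.55 (SE 0.13, edgeR adjusted p = 0.213), for Pnpla2 −0.30 (SE 0.08, adjusted p = 0.356) and for Mgll −0.23 (SE 0.13, adjusted p = 0.797). At this setting 0 of the 10 genes were called at 28d against sham, where 0.0391% of all genes were. With the brown adipocyte and adrenal sums as further covariates, the log2 fold changes were −0.32 for Lipe (SE 0.12, edgeR adjusted p = 0.950), −0.24 for Pnpla2 (SE 0.09, adjusted p = 0.950) and −0.067 for Mgll (SE 0.12), with 0 of the 10 genes and 0% of all genes called. Plin5 was at −0.43 (SE 0.24, edgeR adjusted p = 0.792) with Adipoq alone and at −0.073 (SE 0.25) with all 3 covariates. With Adipoq alone, 0 were called at 5d against sham (all genes 0.00782%). There Lipe differed by −0.38 (SE 0.10, edgeR adjusted p = 0.243), and Pnpla2 by 0.05 (SE 0.07). At 28d against 5d, Pnpla2 fell by 0.35 on the log2 scale (SE 0.08, adjusted p = 0.0222) and was the only member called, where 0.501% of all genes were. The call was lost in 5 of 22 fits without 1 kidney, those without 5d replicate 3 and without 28d replicates 2, 3, 4 and 7 (edgeR adjusted p between 0.0725 and 0.115, the highest without 28d replicate 7).

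With the other 9 white adipocyte markers in place of Adipoq, a setting added after the data had been seen, Lipe was called at 5d (−0.55, edgeR adjusted p = 0.0466) and at 28d against sham (−0.74, adjusted p = 0.0065), where 0.0939% and 0.0469% of all genes were. In the same fit Adipoq itself still differed from sham by −0.31 (SE 0.20) at 5d and by −0.37 (SE 0.23) at 28d. At 28d against 5d this setting called 0 of the 10 genes and 0.509% of all genes. In the model with Adipoq, the calls of Lipe and Pnpla2 at 28d against sham changed without 1 of 2 kidneys. Without sham replicate 8 both were called in edgeR (Lipe −0.62, adjusted p = 0.0420, and Pnpla2 −0.38, adjusted p = 0.0368). Without 28d replicate 6 Lipe was called (−0.61, adjusted p = 0.0231) and Pnpla2 was not (−0.34, adjusted p = 0.157). Without 28d replicate 7 they were −0.38 (adjusted p = 0.964) and −0.24 (adjusted p = 0.964). In 28d replicate 7, Adipoq was at 54.1 CPM with 27.4 CPM of Lipe and 110 CPM of Pnpla2. In sham replicate 2, with the same 54.1 CPM of Adipoq, Lipe was at 54.8 CPM and Pnpla2 at 150 CPM. Sham replicate 2 is one of the pair with adrenal genes (1040 against 5.91 CPM of adrenal markers in 28d replicate 7) and had 374 against 81.2 CPM of brown adipocyte markers, whose part in this was not tested. Lipe relative to Adipoq was lower in 28d replicate 7 (0.506) than in any other kidney. At low Adipoq the values were closer. Sham replicate 8 had 17.9 CPM of Adipoq, 23.4 of Lipe and 90.3 of Pnpla2. For 28d replicate 2 these were 18.5, 19.9 and 87.8 CPM. The slope on Adipoq at 28d minus that in sham was −0.50 for Lipe (SE 0.15), −0.35 for Pnpla2 (SE 0.10) and −0.41 for Mgll (SE 0.16) (edgeR adjusted p = 0.99997 for each). The unadjusted p in edgeR were 0.0027, 0.00095 and 0.016. At this term 0 of 12779 genes were called. The slope at 5d minus that in sham was −0.06 for Lipe (SE 0.12), −0.23 for Pnpla2 (SE 0.07) and −0.26 for Mgll (SE 0.12). The unadjusted p of this 5d term in edgeR were 0.62, 0.0037 and 0.038 (adjusted p = 0.969, 0.558 and 0.815). At the 5d term 1 of 12779 genes was called. Both comparisons of slopes were added after the data had been seen. The fold changes with Adipoq as covariate use a common slope for all groups.

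**Figure D4:**
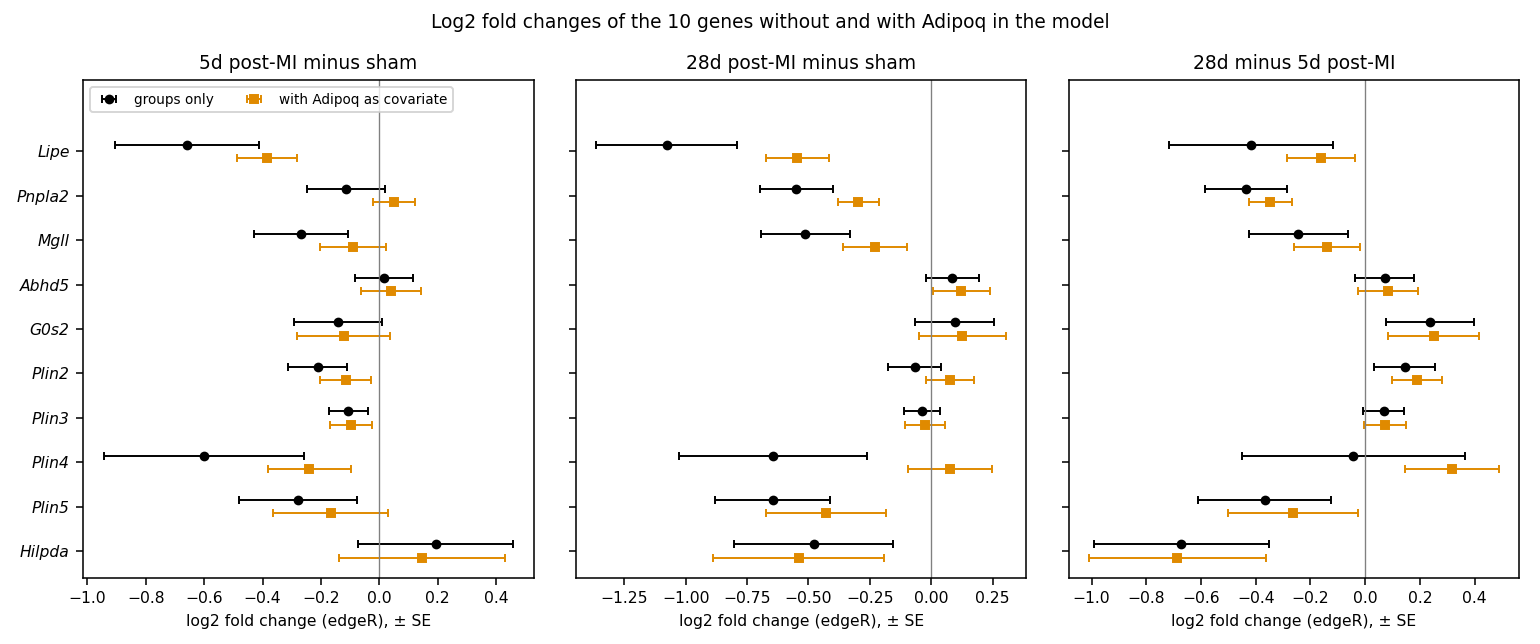
Log2 fold change ± SE of the 10 genes in the 3 comparisons, from edgeR with the groups alone (black circles) and with log2 Adipoq as covariate (orange squares). At 28d post-MI against sham, Lipe moves from −1.08 to −0.55, Pnpla2 from −0.55 to −0.30 and Plin4 from −0.64 to 0.08, while Abhd5, G0s2 and Plin3 hardly move.

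The regulators were set against the lipase by the log2 ratio of their counts to those of Pnpla2 in the same kidney. To each count 2 was added before the ratio was taken. No library scaling enters such a ratio. The ratio of Abhd5 to Pnpla2 was −2.90 ± 0.37 (SD, n = 8) in sham, −2.78 ± 0.26 (n = 8) at 5d and −2.30 ± 0.21 (n = 6) at 28d post-MI. It rose by 0.60 at 28d against sham (exact two-sided permutation test, p = 0.0040, 0.014 adjusted over 9 tests) and by 0.49 against 5d (exact permutation p = 0.0047, adjusted 0.014). The ratio of G0s2 to Pnpla2 was −0.82 ± 0.51 in sham, −0.88 ± 0.44 at 5d and −0.19 ± 0.28 at 28d. It rose by 0.63 at 28d against sham (exact permutation p = 0.0186, adjusted 0.042) and by 0.69 against 5d (p = 0.0040, adjusted 0.014). At 5d against sham the ratios differed by 0.12 (p = 0.478) and −0.06 (p = 0.793) in the same exact permutation test.

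The ratio of Hilpda to Pnpla2 differed by 0.26, 0.21 and −0.05 in the 3 comparisons (exact permutation p = 0.427, 0.244 and 0.886). Hilpda had only 3 to 16 counts per kidney, so the size of these differences depends on the 2 counts added. The ratios share a denominator, Pnpla2, whose log2 fold change at 28d against sham was −0.55 (SE 0.15, edgeR adjusted p = 0.258). Those of Abhd5 and G0s2 were 0.09 and 0.10, so most of both rises against sham lay in the denominator. Pnpla2 moved with Adipoq, and Abhd5 and G0s2 did not. With Adipoq as a covariate the difference in the ratio at 28d against sham was 0.40 for Abhd5 and 0.43 for G0s2, values without a test. The ranges overlapped, from −2.54 to −1.94 at 28d and from −3.41 to −2.32 in sham for Abhd5, and from −0.55 to 0.17 and from −1.52 to −0.09 for G0s2.

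**Figure D5:**
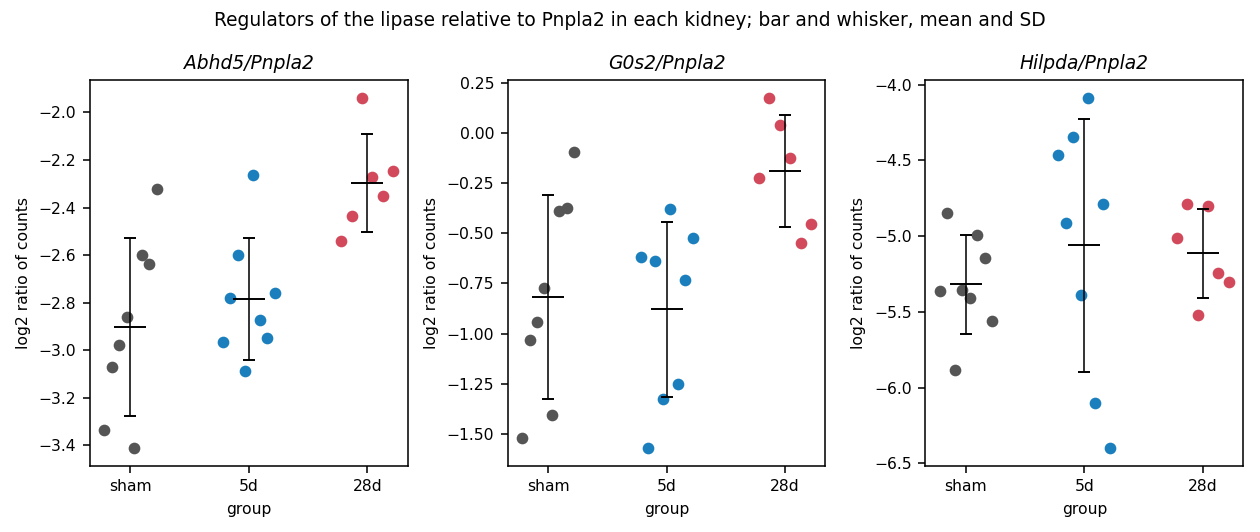
Log2 ratio of the counts of Abhd5, G0s2 and Hilpda to those of Pnpla2, with 2 added to each count, in each kidney of the 3 groups. Points are kidneys, bars are means and whiskers SD, and the means at 28d post-MI are 0.60 above sham for Abhd5 and 0.63 above sham for G0s2.

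The genes whose pattern over the 22 kidneys was most like each member, by r after subtraction of the group means, differed between the groups of members. Lipe was most like Plin1, the main perilipin of adipocytes (r = 0.95), Fabp4, their fatty acid carrier (0.95), and Mmd (0.94). Plin4 was most like Car3 (0.94), Adipoq (0.93) and Cidec, an adipocyte droplet protein (0.93). Pnpla2 was most like Amy1, Cfd, the adipocyte product adipsin, and Fabp4 (all 0.86), and Mgll most like Fabp5 (0.90), Nat8l (0.85) and Cd1d1 (0.85). Plin2 was most like Acaca (0.89), Fasn (0.83) and Acly (0.82), enzymes of fatty acid synthesis. Plin5 was most like Taldo1 (0.75), Cebpa (0.74) and Ucp1, the uncoupling protein of brown fat (0.73). G0s2 was most like Spag9 (0.83), Acsm2 (0.76) and Uqcrfs1 (0.75), Plin3 most like Sirt4 (0.69), Abhd6 (0.68) and Fubp3 (0.68), Abhd5 most like Gm9202, Prr15 and E230001N04Rik (0.72, 0.71 and 0.70), and Hilpda most like Anks1, 2810410L24Rik and Narf (0.75, 0.74 and 0.73). They are the highest of all tested genes and are given as a description, with no test. Among the members, Lipe and Pnpla2 had an r of 0.89, Lipe and Plin4 of 0.89, and Pnpla2 and Plin4 of 0.85, whereas Pnpla2 had an r of −0.08 with G0s2 and 0.15 with Abhd5.

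Of 36 other genes of lipid droplets, 34 were tested, and 0 were called in any of the 3 comparisons. At an unadjusted p under 0.05, 3 were lower at 5d, 6 lower at 28d against sham, and 4 lower and 1 higher at 28d against 5d. Of all genes, 3.96%, 4.23% and 4.01% were lower at this p in the 3 comparisons, and 3.93%, 4.47% and 5.04% higher. The median log2 fold changes of the 34 genes were −0.024, −0.075 and −0.070, against 0.00034, −0.00099 and −0.0045 over all genes. Pnpla3, a paralogue of Pnpla2, was at 5.20 ± 3.11 CPM in sham, 1.98 ± 1.22 at 5d and 1.52 ± 1.63 at 28d, with log2 fold changes of −1.34 and −1.76 (edgeR adjusted p = 0.444 and 0.331). Agpat2, an enzyme of triglyceride synthesis, was at 42.8 ± 13.8, 28.9 ± 8.67 and 23.1 ± 2.48 CPM (−0.55 and −0.88, adjusted p = 0.503 and 0.254). Acsl1, which activates fatty acids, and Fitm1, which helps to form droplets, differed by −0.41 and −0.22 between 28d and 5d (adjusted p = 0.456 and 0.493). On Adipoq, 4 of the 34 genes had a called slope, namely Cidea (1.02), Plin1 (0.98), Cidec (0.81) and Agpat2 (0.41).

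Of 20 PPARα targets, 16 were tested and 0 were called in any comparison, and Pdk4 (0.61, edgeR adjusted p = 0.0017) was the only one with a called slope on Adipoq. At an unadjusted p under 0.05, 2 were higher at 5d, 2 lower at 28d against sham and 3 lower at 28d against 5d, with medians over the 16 genes of 0.12, −0.072 and −0.13. Cyp4a14, a fatty acid hydroxylase, was at 84.6 ± 71.1 CPM in sham, 135 ± 94.9 at 5d and 22.1 ± 8.05 at 28d, with a log2 difference of −2.60 between 28d and 5d (adjusted p = 0.0656). Cpt1a, which carries fatty acids into mitochondria, differed by 0.12 between 5d and sham (adjusted p = 0.611). Of 20 hypoxia genes, 18 were tested and 0 were called. The glucose transporter Slc2a1 was at 33.6 ± 4.34, 41.7 ± 6.32 and 42.2 ± 1.79 CPM, with log2 fold changes of 0.31 and 0.32 (adjusted p = 0.227 and 0.258). The next lowest p against sham belonged to Kdm3a at 5d (−0.26, edgeR adjusted p = 0.624) and Pdk1 at 28d (−0.25, adjusted p = 0.520). At 28d against 5d the lowest were those of P4ha1 (0.30, adjusted p = 0.201) and Pdk1 (−0.33, adjusted p = 0.224). At an unadjusted p under 0.05, 1 hypoxia gene was higher and 2 lower at 5d, 2 higher and 2 lower at 28d against sham, and 3 higher and 1 lower at 28d against 5d. The medians of the 18 genes were −0.016, −0.0054 and 0.041 in the same order.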

How the data were processed

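Kidney RNA of sham, 5d post-MI and 28d post-MI mice was sequenced by MACE (3′ ends, with molecular identifiers). The authors trimmed and mapped the reads and counted them per gene with HTSeq. The submitters' processing notes list cutadapt, FastQC, Bowtie2, HTSeq and DESeq2 and build mm39, whereas the paper's methods name mm10; annotation, strand setting and any collapsing of PCR copies are not given in the sources used here. The deposited table holds whole-number counts of 56941 genes, made by the authors without normalization. The values that the authors named tpm are CPM of each column's total in the deposited table, and were used only to check the columns. Of 48 columns of values, 4 were not assigned, because a pair of kidneys share a column name; 22 kidneys were analysed. Symbols came from GENCODE M21 (51948 identifiers) and RefSeq synonyms (2 genes).

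Counts were filtered by filterByExpr (minimum 10, 12780 genes), scaled by TMM and fitted with edgeR 4.0.16 (robust quasi-likelihood F test, 3 groups, two-sided, Benjamini-Hochberg, threshold 0.05) in R 4.3.3. SE is |log2 fold change|/√F. The self-test used simulated counts. Log2 CPM used a prior count of 2. Alternatives were relative log expression factors, library totals, no filter, DESeq2 1.42.0, limma 3.58.1 voom, only the 2 groups, a replicate block, covariates and leaving out each kidney. Figures used matplotlib 3.10.9, permutations scipy 1.17.1. Exact tests used all 12870 splits of 8 against 8, or 3003 of 6 against 8. A count of 0 allows up to 3 counts; such limits cover counting error only. Each of 71 within-group pairs differed by more than sampling noise (chi-squared 1.77 to 8.10 per degree of freedom).

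Named genes are the 10 genes and Adipoq, of each list the genes called or else those with the 2 lowest p in each comparison, and the 3 genes most like each member. A result that this rule names is not reported here. The genes, lists and tests were chosen with earlier results of these data known. The labels do not say that kidneys of a group came from separate cages or days, so p-values measure the spread between these kidneys.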

Additional observations from a re-analysis of the deposited data

Results flagged for a closer look

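Of 51 sets of values in a group that were tested for a kidney far from the rest, 2 stood out, and chance alone gives about 1 in 20. The summed white adipocyte markers other than Adipoq were highest in 28d replicate 7, at 2471 CPM, with the next kidney of the group at 1909 CPM. This kidney also had the highest Adipoq of its group (54.1 CPM), and leaving it out changed the Adipoq-adjusted difference of Lipe at 28d post-MI against sham from −0.55 to −0.38. The summed adrenal cortex markers were highest in 5d replicate 5, at 99.2 CPM, with the next kidney of the group at 9.89 CPM. In this kidney Lipe was at 42.9 CPM and Pnpla2 at 158 CPM, both within the range of the other kidneys at 5d post-MI.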

How the results depend on the processing

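The count of called genes among the 10 was 0 in each comparison under most alternatives. It was 1 at 5d against sham with the other white adipocyte markers as covariate (Lipe, −0.55, edgeR adjusted p = 0.0466). At 28d against sham it was 1 with DESeq2 (Pnpla2), 2 with DESeq2 on both groups alone (Lipe and Pnpla2) and 1 with the other white adipocyte markers (Lipe, −0.74, edgeR adjusted p = 0.0065), and 0 to 1 when each kidney was left out. At 28d against 5d it was 1 with DESeq2 on both groups alone and 1 with the Adipoq covariate (Pnpla2 in each). The slope on Adipoq was called for 2 genes with brown and adrenal genes as covariates, where 0.196% of all genes were, and for 4 to 5 without single kidneys, where 0.464% to 0.621% were. Spearman's rho, the other white adipocyte markers and leaving out 5d replicate 6 each gave 3 genes that followed Adipoq. Fits with the other white markers, without both sham kidneys with adrenal genes, with DESeq2 on both groups alone and with a slope per group were chosen after seeing the data; without both adrenal sham kidneys, Lipe was at −1.08 and Pnpla2 at −0.57 at 28d, and no gene of the 10 was called.

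Signs turned for several values, of which Plin4 at 28d against sham (−0.64) and Lipe at 28d against 5d (−0.42) were the larger ones with the groups alone. With the Adipoq covariate and with all 3 covariates, Pnpla2 at 5d became 0.050 and 0.061, Plin2 at 28d 0.075 and 0.14, Plin4 at 28d 0.076 and 0.053, and Plin4 at 28d against 5d 0.32 and 0.30. All 3 covariates also turned Plin3 at 28d (0.0086), Lipe at 28d against 5d (0.019) and the slopes of Plin3 (−0.015) and Plin5 (−0.095). The other white markers turned Plin2 at 28d (0.023) and Plin4 at 28d against 5d (0.30), and voom turned the latter (0.088). Without single kidneys, Abhd5 at 5d ran from −0.022 to 0.043 and Plin4 at 28d against 5d from −0.34 to 0.13, the slope of G0s2 from −0.0054 to 0.054 and that of Hilpda from −0.17 to 0.0031. The ratio of G0s2 to Pnpla2 at 5d was 0.18 by medians and −0.16 to 0.041 without single kidneys. The ratio of Hilpda to Pnpla2 was −0.097 at 28d against sham with Adipoq, and −0.24 to 0.087 at 28d against 5d without single kidneys. The ratio of Abhd5 to Pnpla2 at 5d was −0.030 with Adipoq. The cause of these changes was not tested.

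Same replicate numbers did not deviate together (18 pairs, r −0.13 to 0.09, against −0.21 to 0.22 in 142 pairs of other numbers). No pairing by number was thus detected, which does not show that there was none. With the replicate block 0 of the 10 genes were called in each comparison, Lipe at 28d was −1.02 and Pnpla2 −0.52, Abhd5 at 5d turned to −0.017 and Plin4 at 28d against 5d to 0.21, and all genes called were 2, 24 and 80. Over all genes the DEGs numbered 9, 3 and 53 in edgeR with the groups alone, 80, 94 and 160 without a filter, 36, 33 and 91 with DESeq2, 22, 11 and 63 with voom, and 2, 31 and 26 in fits of 2 groups. Counts per kidney were lowest for Hilpda (3 to 16), Plin4 (5 to 71) and Plin5 (10 to 48), which limits their precision.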
